A study of Mus musculus with 5 samples.

Results

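The SR proteins and the heterogeneous nuclear ribonucleoproteins (hnRNPs), the pair of RNA-binding protein families that decide much of the alternative splicing of a mammalian cell, were described here at the level of their messenger RNAs in mouse myoblasts. Members were taken by symbol, as every row of the deposited expression table whose gene symbol begins with Srsf and a digit or with Hnrnp. This gave 31 of 12615 genes, of which 10 belong to the SR family and 21 to the hnRNP family. The 21 hnRNP rows comprise 20 coding genes and 1 pseudogene, Hnrnpa1l2-ps2.

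The 5 libraries were made from C2C12, an established cell line of muscle precursors (myoblasts) from the mouse, after 5 h of transfection. Their estimated depth ran from 15.2 to 20.1 M reads. The labels assign 2 samples to miR-16 knockdown and 3 samples to the empty vector control (pCMVmiR). In the protocol the plasmid is named as one for miR-16-1 (miR-16-5p), which does not settle whether the miRNA was lowered or raised, and no value for mature miR-16 was used here. All 8 myoblast markers looked for were in the table, with a summed level of 182159 to 182427 normalized counts in knockdown and 174391 to 179449 in empty vector samples. Most of that sum was Vim, which is not specific to myoblasts. Myod1, the defining regulator of the lineage, had 1555 and 1600 normalized counts in the knockdown samples, against 1619, 1536 and 1685 in empty vector 1, 2 and 3. Of the markers of other cell types, 0 of 5 leukocyte, 1 of 4 endothelial, 1 of 4 epithelial and 2 of 4 neuron markers were in the table. The neuron marker Tubb3 had 745 and 742 normalized counts in knockdown samples, against 804, 949 and 674 in empty vector 1, 2 and 3. That was above the myoblast markers Cdh15, Pax7 and Myf5 in every sample, and below Myod1, Des, Myl6, Vim and Met. Kdr, Krt18 and Syt1 reached 22.7 normalized counts at most.

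SR proteins carry RNA recognition motifs and a tail rich in arginine and serine. They bind mostly exonic enhancers, recruit the spliceosome and favour inclusion of the exon, and kinases of the SRPK and CLK families control them by phosphorylating the tail. The hnRNPs coat nascent transcripts, often bind silencers or intronic elements and can oppose SR proteins at the same exon. They also serve in export, stability and translation of messenger RNA. Many genes of both families limit their own output by splicing in a poison exon, which sends the transcript to nonsense-mediated decay.

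A microRNA pairs through its seed, bases 2 to 8, with short sites in 3' UTRs. The mature sequences below, from RefSeq (GRCm38.p6), show miR-16-5p and 4 of the other miRNAs with the same seed, which is given in capitals. Any miRNA with this seed could pair with the member sites that follow. Those not printed are miR-195b, miR-497a-5p, miR-6342, miR-6353 and miR-6419. The miR-16-5p copy of the Mir16-1 hairpin lies at chr14:61631936-61631957 on the minus strand.
miR-16-5p: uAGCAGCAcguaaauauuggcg
miR-15a-5p: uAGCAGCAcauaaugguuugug
miR-15b-5p: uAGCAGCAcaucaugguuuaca
miR-195a-5p: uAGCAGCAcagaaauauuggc
miR-322-5p: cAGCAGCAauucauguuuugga

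The longest annotated 3' UTR of each member (GENCODE M21, GRCm38) was searched on the sense strand for TGCTGCT, for the same letters followed by A (TGCTGCTA, the 8mer), and for GCTGCTA. A site was found in 2 of 10 SR genes (20.0%) and in 6 of the 20 hnRNP genes with a 3' UTR (30%), against 29.2% of 11490 tested genes. The 8mer, usually the stronger kind of site, was found in 0 of 10 SR genes, in 2 of 20 hnRNP genes (10%) and in 4.76% of the tested genes. The first site of each member is printed below within 30 bases of its UTR, with the site in capitals, and for Hnrnpr the 8mer is printed.
Srsf6, chr2:162936263-162936269, plus strand: tcaaacaaagcTGCTGCTttagtcttcttt
Srsf11, chr3:158011783-158011789, minus strand: agctgtgcaacTGCTGCTttaacacagatg
Hnrnpa1, chr15:103244358-103244364, plus strand: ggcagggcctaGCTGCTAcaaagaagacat
Hnrnpa3, chr2:75669046-75669052, plus strand: gacctgtgggaTGCTGCTcccagtttacat
Hnrnpd, chr5:99959765-99959771, minus strand: ctagttcatgaGCTGCTAtcagattggtct
Hnrnpr, chr4:136349171-136349178, plus strand: ttctctgctgcTGCTGCTActccttttcct
Hnrnpu, chr1:178327905-178327912, minus strand: ctactacacaaTGCTGCTAacttaactagc
Hnrnpul2, chr19:8832593-8832599, plus strand: gggctctgcccTGCTGCTgttttttgtttt

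The Hnrnpr 8mer sits in a run of CTG repeats within a long annotated 3' UTR of 19419 bases, whereas the Hnrnpu 8mer lies outside such a repeat. Members with and without a site can be set side by side. Among hnRNP genes the median log2 difference, knockdown minus empty vector, was 0.08 with a site (6 genes) and 0.08 without (14 genes), and among SR genes it was -0.01 with a site (2 genes) and 0.10 without (8 genes). Over all tested genes these medians were -0.02 with a site and 0.01 without. Against empty vector 2, the control on the flow cell of the knockdown samples, they were -0.02 with a site and 0.0017 without among hnRNP genes, and 0.07 with a site and 0.06 without among SR genes. A sequence match is a description of these letters and does not show that a miRNA binds there.

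All 31 members passed the filter of a mean of at least 10 normalized counts, the values as deposited. Judging by their steps, these are reads divided by a size factor per sample. Levels between genes were compared as normalized counts per kilobase of transcript, at the median length of the coding transcripts of each gene. In the SR family Srsf2, a nuclear speckle protein that stays in the nucleus, was highest, with 5751 ± 286 per kb in knockdown samples and 5563 ± 97 per kb in empty vector samples (SD, n = 2 and 3). Srsf1, the prototype of the family and a factor that shuttles to the cytoplasm, followed at 3070 ± 87 per kb in knockdown and 2865 ± 76 per kb in empty vector samples. Srsf6 came next, at 2636 ± 23 per kb in knockdown and 2622 ± 127 per kb in empty vector samples, and its empty vector values lay below those of Srsf1 without overlap. The lower end held Srsf10, which acts as a splicing repressor once dephosphorylated, at 858 ± 46 per kb in knockdown and 862 ± 11 per kb in empty vector samples. Srsf4 was the lowest SR gene, with 686 ± 30 per kb in knockdown and 642 ± 17 per kb in empty vector samples. The neighbours Srsf10 and Srsf11, and Srsf11 and Srsf5, overlapped among the empty vector samples, so their order cannot be read beyond the spread.

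The hnRNP genes covered a wider range per kb. Hnrnpab, an A/B-type protein that also binds DNA, was highest, with 9080 ± 401 per kb in knockdown and 8144 ± 1370 per kb in empty vector samples. Hnrnpa2b1, which binds silencers and transport elements, had 6368 ± 1.63 per kb in knockdown and 5671 ± 543 per kb in empty vector samples. Hnrnpf, a binder of guanine tracts, had 5580 ± 20.1 per kb in knockdown and 5337 ± 174 per kb in empty vector samples, overlapping Hnrnpa2b1 among the controls. The lowest coding gene was Hnrnph3, a relative of Hnrnpf, at 164 ± 18.5 per kb in knockdown and 136 ± 17.7 per kb in empty vector samples. The pseudogene Hnrnpa1l2-ps2 stood at 17.5 ± 4.18 per kb in knockdown and 22.3 ± 5.09 per kb in empty vector samples. Its sequence is near-identical to Hnrnpa1, so its reads may belong in part to that gene. Srsf2 and Hnrnpab kept first place in their families under all 3 definitions of transcript length tried, while ranks lower down moved, and Hnrnpa3 moved from rank 4 to rank 12. By the combined exons and by the longest transcript, Hnrnpr was the lowest coding hnRNP gene. It had 102 per kb in empty vector samples by either length, against 121 and 134 for Hnrnph3. Srsf3 was second in the SR family by both lengths, and Srsf10 was lowest by the combined exons.

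**Figure D1:**
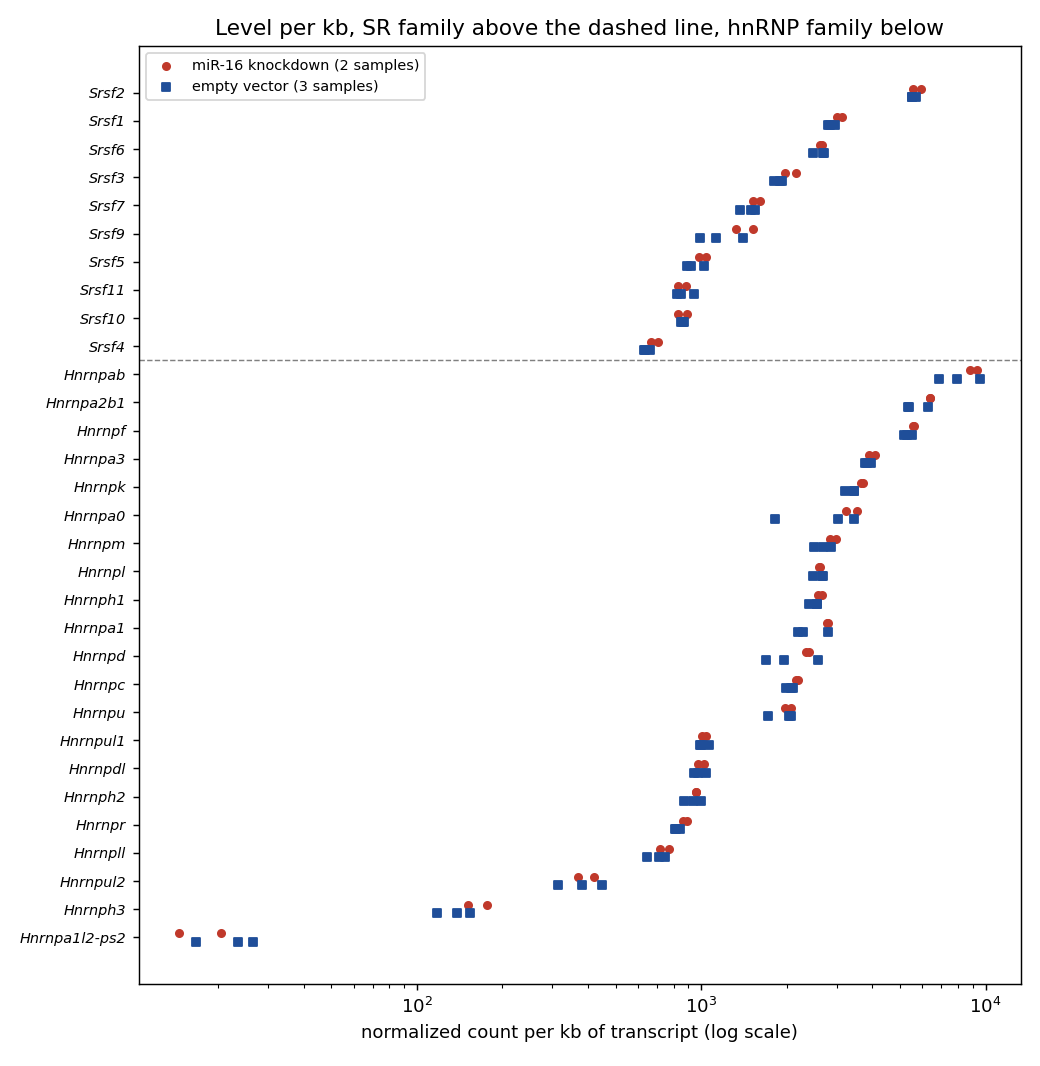
Normalized counts per kb of transcript (log scale) of the 31 members, with knockdown samples as circles and empty vector samples as squares. Srsf2 and Hnrnpab lead their families, with empty vector means of 5563 and 8144 per kb, and the 2 groups of samples sit close together for nearly every gene.

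No member passed the test between the groups. With limma's moderated test across 11990 genes and Benjamini-Hochberg adjustment, 0 of 10 SR and 0 of 21 hnRNP genes had an adjusted p under 0.05, against 0 of all genes tested (0.0%). At an unadjusted p under 0.05 there were 0 SR genes and 1 hnRNP gene, Hnrnpa1, which was higher in knockdown samples, beside 8.13% of all tested genes (2.83% higher and 5.3% lower). The differences themselves leaned to one side. The log2 difference, knockdown minus empty vector, was above 0 in 8 of 10 SR genes and 20 of 21 hnRNP genes, against 50.2% of tested genes. Its median was 0.10 over the SR family, 0.08 over the hnRNP family and 0.00073 over all tested genes. Members are not independent of each other and the same samples enter every row, so these counts carry no test. Whether the replicates were separate cultures is not in the labels, so each p reflects sample-to-sample spread that could be purely technical.

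The flow cells named in the table's column headers bear on every one of these values. Both knockdown samples and empty vector 2 were on flow cell B, and empty vector 1 and 3 were on flow cell A, with lane and identifier series split along the same line. Differences against empty vector 2 alone, the single control on flow cell B, are therefore given as well. In that fit the lone control is assumed to vary like the knockdown samples, and 370 of 11990 genes had an unadjusted p under 0.05 (limma), 0 of them members.

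**Figure D2:**
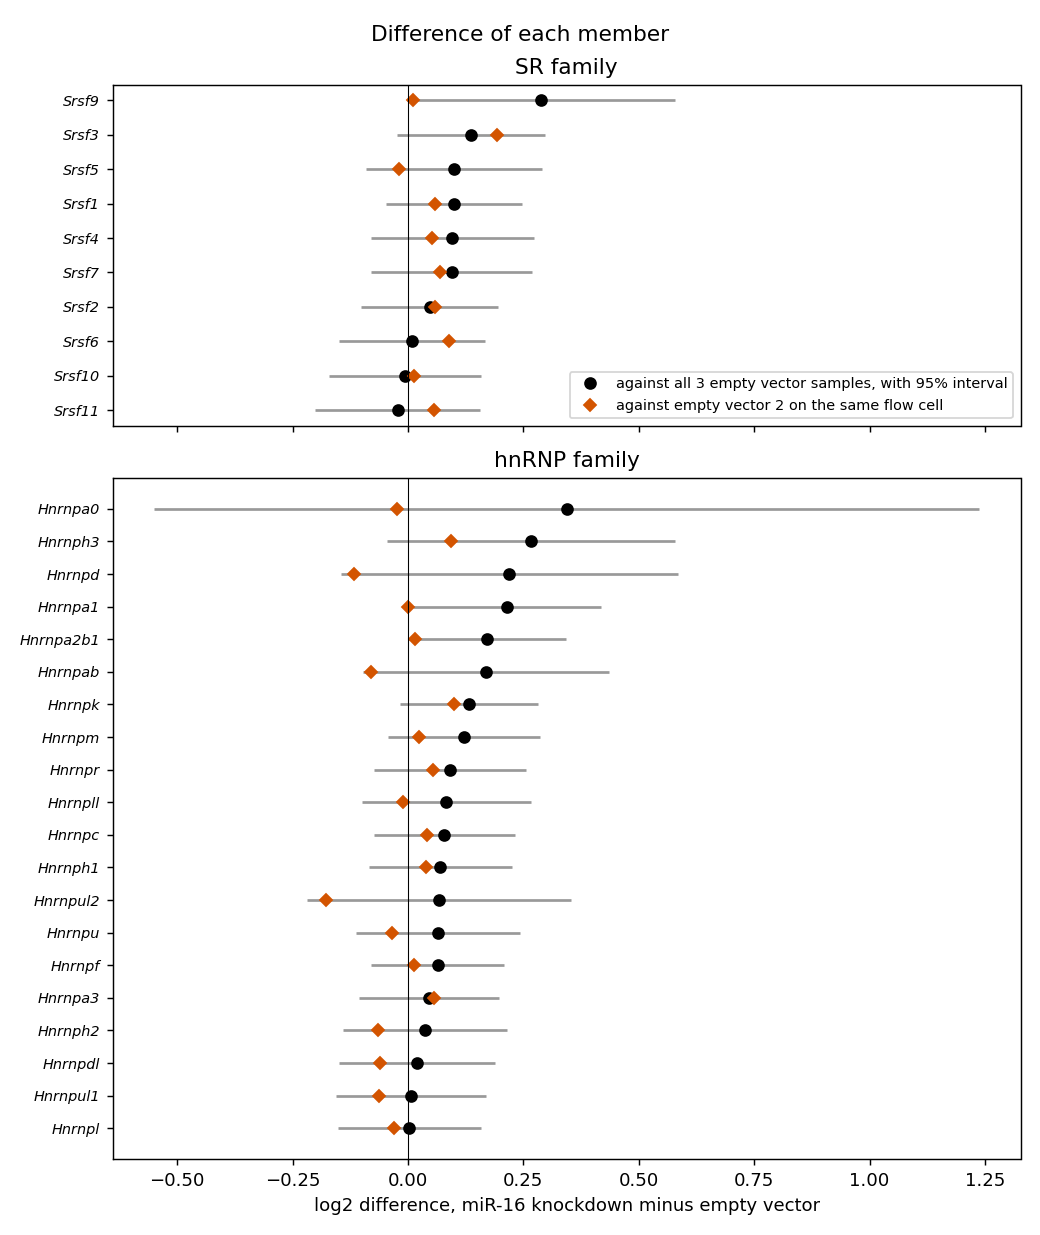
Log2 difference, knockdown minus empty vector, of the 30 coding members, with circles and 95% intervals (limma) for the comparison with all 3 empty vector samples and diamonds for the comparison with empty vector 2 on the same flow cell. Pooled differences of the hnRNP genes lie above 0, with a median of 0.08, whereas the diamonds scatter around 0, and 9 of 10 SR diamonds lie above 0.

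Among the SR genes the smallest p belonged to Srsf9, a shuttling protein related to Srsf1. It had 1536 and 1768 normalized counts in the knockdown samples, against 1307, 1636 and 1148 in empty vector 1, 2 and 3. Empty vector 2 lay between the 2 knockdown samples, and only empty vector 1 and 3 were lower. The pooled log2 difference was 0.29 ± 0.13 (SE), with an adjusted p of 0.61 by limma. Against empty vector 2 alone it was 0.01. Srsf9 had the widest spread of the SR family among empty vector samples, a coefficient of variation of 18.2%.

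Srsf3, the smallest SR protein and an adaptor for messenger RNA export, showed the reverse arrangement. It had 5173 and 5621 normalized counts in the knockdown samples, against 5039, 4716 and 4959 in empty vector 1, 2 and 3. Both knockdown samples exceeded all 3 controls, and the lowest sample was empty vector 2. The log2 difference was 0.14 ± 0.08 (SE; limma adjusted p = 0.66), and it was 0.19 on flow cell B.

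Srsf1 had 8868 and 9232 normalized counts in the knockdown samples, against 8390, 8692 and 8252 in empty vector 1, 2 and 3. The groups did not overlap, although empty vector 2 came close to knockdown 1. Its log2 difference was 0.10 ± 0.07 (SE; limma adjusted p = 0.73), with 0.06 on flow cell B. Srsf4, whose product shares its domain layout with Srsf5 and Srsf6, was the third SR gene without overlap. It had 1500 and 1596 normalized counts in the knockdown samples, against 1431, 1492 and 1421 in empty vector 1, 2 and 3, with knockdown 1 barely above empty vector 2. Both knockdown samples thus exceeded all 3 controls in 3 of 10 SR genes (30%), beside 11.4% of tested genes, and in 0 SR genes were both below (23.8% of tested genes stood apart in either direction, 12.4% with both below). Without knockdown 1, knockdown 2 exceeded all 3 controls in 7 SR genes (beside 26.9% of tested genes). Without empty vector 2, both knockdown samples exceeded the controls kept, which were both on flow cell A, in 5 SR genes (beside 22.4%).

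Srsf7, which carries a zinc knuckle and also adapts messenger RNA for export, had 2539 and 2676 normalized counts in the knockdown samples, against 2282, 2485 and 2564 in empty vector 1, 2 and 3. Here the groups overlapped through knockdown 1 and empty vector 3, and the log2 difference was 0.09 ± 0.08 (SE), with 0.07 on flow cell B. Srsf5 had 1561 and 1473 normalized counts in the knockdown samples, against 1337, 1538 and 1377 in empty vector 1, 2 and 3. Its pooled log2 difference of 0.10 ± 0.09 (SE) turned to -0.02 on flow cell B. Srsf2 had 8947 and 9599 normalized counts in the knockdown samples, against 9149, 8897 and 8863 in empty vector 1, 2 and 3, so that knockdown 1 lay inside the control range, with a log2 difference of 0.05 ± 0.07 (SE) and 0.06 on flow cell B.

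Srsf6, Srsf10 and Srsf11 had the pooled differences closest to 0 in the SR family. Srsf6 had 5294 and 5360 normalized counts in the knockdown samples, against 5473, 5005 and 5419 in empty vector 1, 2 and 3, a log2 difference of 0.01 ± 0.07 (SE). Empty vector 2 was the lowest of the 5 samples, and the difference from it was 0.09. Srsf10 had the smallest spread of the family, a coefficient of variation of 1.25% over 2638, 2599 and 2664 normalized counts in empty vector 1, 2 and 3. Its knockdown samples, at 2525 and 2723 normalized counts, lay on either side of all 3 controls, a log2 difference of -0.01 ± 0.08 (SE) that was 0.01 on flow cell B. Srsf11 had 2391 and 2537 normalized counts in the knockdown samples, against 2712, 2369 and 2437 in empty vector 1, 2 and 3, and a log2 difference of -0.02 ± 0.08 (SE). Both knockdown samples exceeded empty vector 2, from which the difference was 0.06. The 95% limits of the pooled differences ran from -0.15 to 0.17 for Srsf6, from -0.17 to 0.16 for Srsf10 and from -0.20 to 0.16 for Srsf11, which bounds what these samples could show.

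In the hnRNP family the smallest p belonged to Hnrnpa1, a repressor of exon inclusion that binds silencers and shuttles between nucleus and cytoplasm. It had 4865 and 4825 normalized counts in the knockdown samples, against 3946, 4847 and 3805 in empty vector 1, 2 and 3. Empty vector 2 fell between the knockdown samples, and empty vector 1 and 3 stood apart below. The pooled log2 difference was 0.21 ± 0.10 (SE; limma adjusted p = 0.60), and against empty vector 2 it was -0.00045.

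Its close relative Hnrnpa2b1 had a similar arrangement. It had 10486 and 10490 normalized counts in the knockdown samples, against 8830, 10372 and 8817 in empty vector 1, 2 and 3. Both knockdown samples exceeded all 3 controls, yet empty vector 2 came close to them. The log2 difference was 0.17 ± 0.08 (SE; limma adjusted p = 0.61), and it was 0.02 on flow cell B. Of the other A-type genes, Hnrnpa3 had a log2 difference of 0.05 ± 0.07 (SE), or 0.06 on flow cell B, with 34 near-identical pseudogene copies in the annotation that could share its reads.

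Hnrnpa0, an intronless A-type gene, had the largest pooled difference and also the largest spread. It had 8663 and 9476 normalized counts in the knockdown samples, against 8139, 9217 and 4851 in empty vector 1, 2 and 3. Empty vector 3 was far below the other samples. The log2 difference of 0.34 ± 0.32 (SE) was 0.07 without empty vector 3 and -0.02 on flow cell B. Hnrnpab was likewise lowest in empty vector 3, as was Hnrnpd, also called AUF1, a binder of AU-rich elements that promotes messenger RNA decay. Hnrnpab had 17707 and 18850 normalized counts in the knockdown samples, against 16028, 19314 and 13836 in empty vector 1, 2 and 3. Hnrnpd had 4408 and 4299 normalized counts in the knockdown samples, against 3581, 4718 and 3092 in empty vector 1, 2 and 3. In both genes empty vector 2 was the highest of the 5 samples. The pooled log2 difference of Hnrnpab, 0.17 ± 0.12 (SE), was -0.08 on flow cell B, and that of Hnrnpd, 0.22 ± 0.16 (SE), was -0.12.

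Hnrnpk is a KH-domain protein that binds cytosine tracts. It had 9690 and 9915 normalized counts in the knockdown samples, against 8529, 9153 and 9155 in empty vector 1, 2 and 3. The groups did not overlap. Empty vector 2 and 3 were nearly equal and empty vector 1 was lower, with a log2 difference of 0.05 for empty vector 2 over the mean of empty vector 1 and 3. The log2 difference was 0.13 ± 0.07 (SE; limma adjusted p = 0.65), with 0.10 on flow cell B, the largest of the hnRNP family there.

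Hnrnpc, which binds uridine tracts of nascent transcripts, had 5407 and 5519 normalized counts in the knockdown samples, against 5206, 5306 and 5010 in empty vector 1, 2 and 3. The guanine-tract binder Hnrnph1 had 5731 and 5941 normalized counts in the knockdown samples, against 5314, 5679 and 5695 in empty vector 1, 2 and 3. Hnrnpr, a relative of Syncrip, had 2376 and 2297 normalized counts in the knockdown samples, against 2175, 2251 and 2152 in empty vector 1, 2 and 3. In these 3 genes the groups did not overlap, with log2 differences of 0.08 ± 0.07 for Hnrnpc, 0.07 ± 0.07 for Hnrnph1 and 0.09 ± 0.08 for Hnrnpr (SE). On flow cell B these were 0.04 for Hnrnpc, 0.04 for Hnrnph1 and 0.05 for Hnrnpr. Hnrnpr had the smallest spread of the family, a coefficient of variation of 2.35% among empty vector samples. Hnrnpf was also without overlap, with 12640 and 12704 normalized counts in the knockdown samples, against 11782, 12555 and 12026 in empty vector 1, 2 and 3. In all, both knockdown samples exceeded all 3 controls in 6 of 21 hnRNP genes (28.6%, beside 11.4% of tested genes) and were below in 0. Without knockdown 1, knockdown 2 exceeded all 3 controls in 11 hnRNP genes (beside 26.9% of tested genes). Without empty vector 2, both knockdown samples exceeded the controls kept in 16 hnRNP genes (beside 22.4%). The controls kept were then both on flow cell A, so group and flow cell cannot be told apart in that count.

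Hnrnph3 had 327 and 384 normalized counts in the knockdown samples, against 256, 332 and 300 in empty vector 1, 2 and 3, a log2 difference of 0.27 ± 0.15 (SE; limma adjusted p = 0.66). Knockdown 1 lay just below empty vector 2, and on flow cell B the difference was 0.09. Hnrnpm, which binds guanine and uridine-rich elements, had 7087 and 7414 normalized counts in the knockdown samples, against 6692, 7126 and 6196 in empty vector 1, 2 and 3. Its log2 difference of 0.12 ± 0.08 (SE) was 0.02 on flow cell B, and knockdown 1 was again just below empty vector 2. Hnrnpu, also known as scaffold attachment factor A and tied to chromatin structure, had 15832 and 15016 normalized counts in the knockdown samples, against 15499, 15795 and 13081 in empty vector 1, 2 and 3. The Hnrnpu groups overlapped, and its log2 difference of 0.06 ± 0.08 (SE) was -0.03 on flow cell B and -0.02 without empty vector 3. The remaining coding genes, Hnrnpdl, Hnrnph2, Hnrnpl, Hnrnpll, Hnrnpul1 and Hnrnpul2, had log2 differences between 0.0028 and 0.083, and each had overlapping groups. On flow cell B all 6 were below 0, between -0.18 for Hnrnpul2 and -0.01 for Hnrnpll. The pseudogene was the only hnRNP row with a difference below 0, at -0.33 ± 0.45 (SE), from 14.02 and 19.7 normalized counts in the knockdown samples, against 25.6, 22.7 and 16.1 in empty vector 1, 2 and 3.

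**Figure D3:**
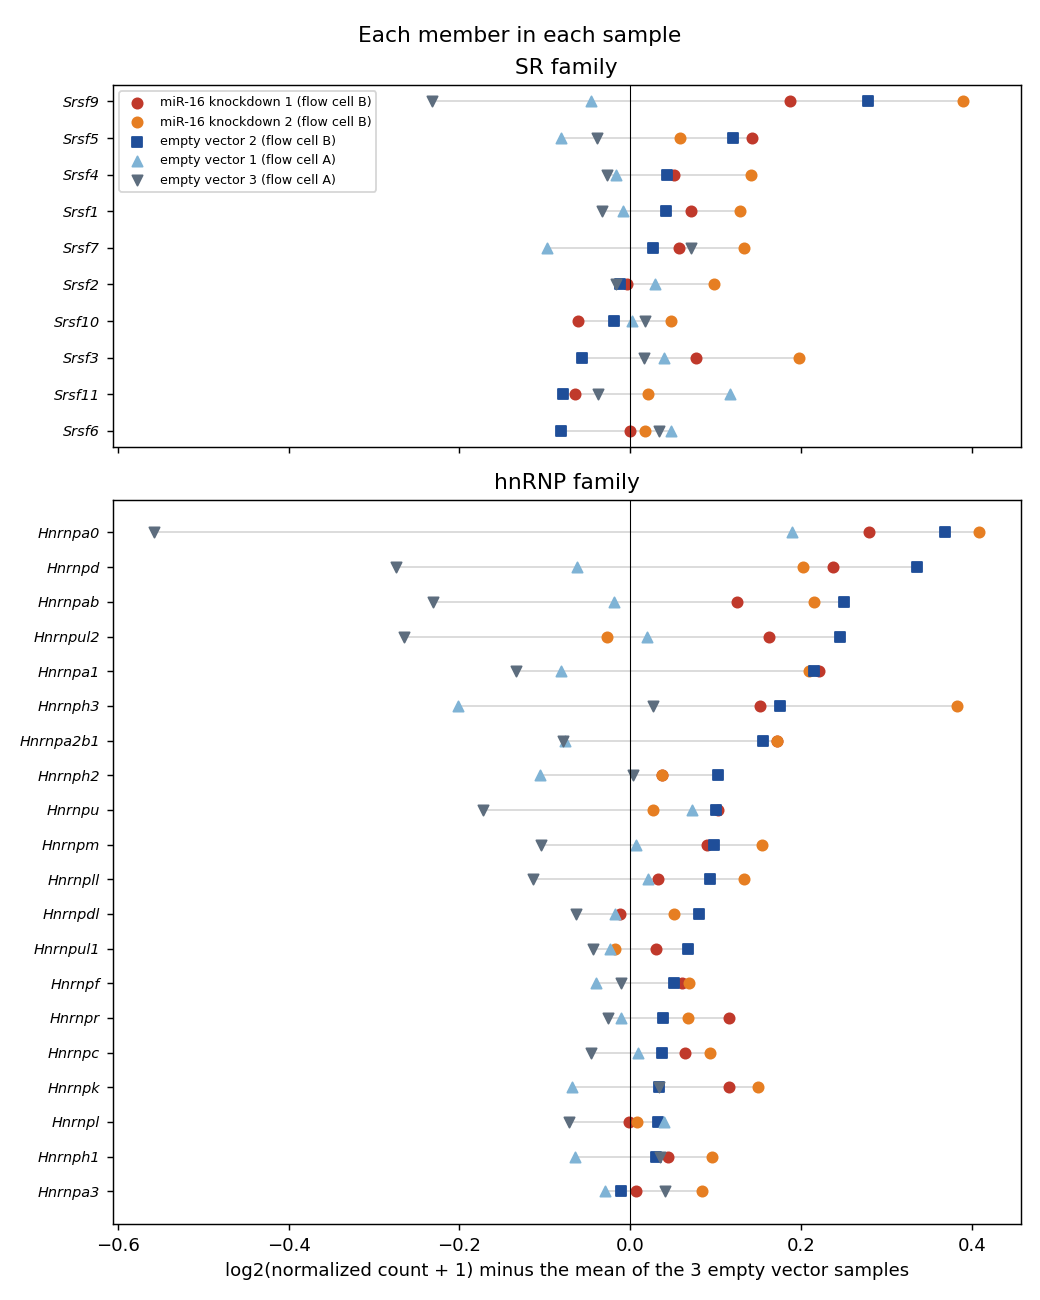
Value of each of the 30 coding members in each sample, as log2(normalized count + 1) minus the mean of the 3 empty vector samples, with circles for knockdown samples, squares for empty vector 2 and triangles for empty vector 1 and 3. In most hnRNP rows the square lies among or to the right of the circles, and the triangles lie to the left of the square, as in Hnrnpa1 with 4847 normalized counts in empty vector 2 and 3946 and 3805 in empty vector 1 and 3.

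Set side by side, the families gave like counts in the pooled comparison and unlike ones on flow cell B. Against empty vector 2 alone, the log2 difference was above 0 in 9 of 10 SR genes and in 9 of 21 hnRNP genes, beside 47.3% of tested genes. Medians of that difference were 0.06 for the SR family, -0.01 for the hnRNP family and -0.01 for all tested genes. Both knockdown samples exceeded empty vector 2 in 7 of 10 SR genes (70.0%) and 7 of 21 hnRNP genes (33.3%), beside 31.1% of tested genes, and both were below it in 0 SR and 8 hnRNP genes, beside 34.0%. The hnRNP share is thus near the background on flow cell B, and the lowest adjusted p of any member there was 0.99982 (limma). No test of the difference between families was made, since the members share their samples.

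The controls can also be compared among themselves. Empty vector 2 exceeded both empty vector 1 and 3 in 16 of 21 hnRNP genes (76.2%) and in 4 of 10 SR genes (40.0%), beside 33.8% of tested genes. The median log2 difference of empty vector 2 over the mean of empty vector 1 and 3 was 0.15 for hnRNP genes, 0.01 for SR genes and 0.00052 for all tested genes. The spread among empty vector samples, as the median coefficient of variation, was 7.19% in the hnRNP family, 4.13% in the SR family and 8.57% over all tested genes.

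Summed over the family, hnRNP messenger RNA came to 130007 and 132212 normalized counts in the knockdown samples, against 120207, 132113 and 111604 in empty vector 1, 2 and 3. These are 131110 ± 1559 in knockdown and 121308 ± 10299 in empty vector samples (SD, n = 2 and 3), and empty vector 2 lay between the knockdown samples. The SR sum was 40335 and 42584 in the knockdown samples, against 39759, 39429 and 39105 in empty vector 1, 2 and 3, or 41460 ± 1590 in knockdown and 39431 ± 327 in empty vector samples. Here both knockdown sums exceeded all 3 controls, and empty vector 2 lay inside the range of the other two controls. In bulk RNA, fewer cells expressing a gene and less RNA per cell cannot be told apart.

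**Figure D4:**
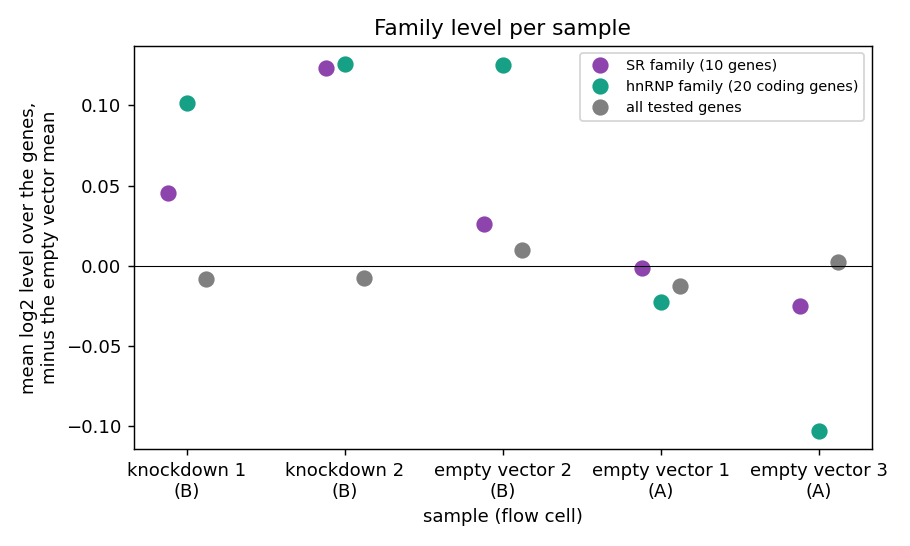
Mean log2 level of the SR family (10 genes), the hnRNP family (20 coding genes) and all tested genes in each sample, relative to the mean of the 3 empty vector samples, with the flow cell in parentheses. The hnRNP mean was 0.10 and 0.13 in the knockdown samples, against 0.12 in empty vector 2 and -0.02 and -0.10 in empty vector 1 and 3, whereas the SR mean was 0.05 and 0.12 in the knockdown samples, against 0.03, -0.0015 and -0.02 in empty vector 2, 1 and 3.

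Other measures of the libraries also differed between samples. The ribosomal RNA gene Rn18s had 67529 and 85389 normalized counts in the knockdown samples, against 240989, 76098 and 484918 in empty vector 1, 2 and 3, so that the flow cell A controls averaged 4.77 times empty vector 2. Levels also followed transcript length differently between samples, by a slope per doubling of length of -0.05 and -0.12 in the knockdown samples, against 0.03, -0.05 and 0.01 on the log2 scale in empty vector 1, 2 and 3. The trend was steepest in knockdown 2, while knockdown 1 and empty vector 2 were alike. With that trend removed, the median difference was 0.04 in the SR family and 0.10 in the hnRNP family. The part of either measure in the family differences was not tested. For empty vector 1 and 3, the flow cell cannot be told apart from anything else these samples share.

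Annotated transcripts, which the choice by symbol did not use, differed between the families mainly in those marked for nonsense-mediated decay. The median number of annotated transcripts per gene was 7.5 in the SR family, 7.0 in the hnRNP family and 5.0 over all tested genes. The part of that number in the shares that follow was not tested. A transcript marked for nonsense-mediated decay is annotated in 9 of 10 SR genes (90.0%), 10 of 21 hnRNP genes (47.6%) and 28.3% of tested genes (GENCODE M21), the exception among SR genes being Srsf10. Retained-intron transcripts are annotated in 80.0% of SR genes, 66.7% of hnRNP genes and 58.6% of tested genes. Values per gene cannot show which of these transcripts was made. Processed copies and overlapping genes limit single values further. Near-identical pseudogene copies, at 95% identity over at least 150 bases, exist for 3 SR and 9 hnRNP genes, with 9 for Hnrnpa1, 6 for Hnrnpf and 3 for Srsf3, and genes on the opposite strand overlap 3 SR and 10 hnRNP genes. The strand setting of the counting is not given in the sources used here, so reads of such partners cannot be told apart.

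In the authors' deposited table, the ratio of knockdown to control was above 1 in 8 of 10 SR and 20 of 21 hnRNP genes, beside 49.5% of 11488 genes with a p. The p in the authors' deposited table was under 0.05 in 2 SR and 3 hnRNP genes, each with a ratio above 1, beside 9.48% of genes in either direction and 3.46% with a ratio above 1. These were Srsf9 (ratio 1.21, p = 0.025), Srsf3 (1.10, p = 0.049), Hnrnpa1 (1.15, p = 0.026), Hnrnpa2b1 (1.12, p = 0.029) and Hnrnpk (1.10, p = 0.041) in the authors' deposited table. Of the 29 members given an adjusted p in the authors' deposited table, 0 were under 0.05, beside 1.06% of genes, and the lowest was 0.30, for Srsf9. The 2 calculations use the same 5 samples and are not independent of each other.

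The wider splicing machinery was read from 6 lists, in which 0 genes passed the threshold (limma, adjusted over all genes). The list counts above 0 stand beside 50.2% of tested genes in the pooled comparison and 47.3% on flow cell B. Medians over all tested genes were 0.00073 pooled and -0.01 on flow cell B. Of the kinases and phosphatases that act on SR proteins, 7 of 12 tested genes had a log2 difference above 0, with a median of 0.02. Srpk1, the cytoplasmic SR protein kinase, had 1357 and 1116 normalized counts in the knockdown samples, against 1401, 1444 and 1345 in empty vector 1, 2 and 3, a log2 difference of -0.18 ± 0.10 (SE) that was -0.23 on flow cell B and -0.04 without knockdown 2. Ppp1r8, a nuclear inhibitor of protein phosphatase 1, had a difference of 0.17 ± 0.09 (SE), which was 0.02 on flow cell B. Of the nuclear import and export factors, 2 of 5 were above 0, with a median of -0.05. Tnpo3, the import receptor for SR proteins, differed by -0.07 ± 0.08 (SE), and by 0.02 on flow cell B. Tnpo1, which imports Hnrnpa1, differed by -0.19 ± 0.09 (SE), a value that was -0.07 without knockdown 2 and -0.04 with the length trend removed.

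Of the coactivators related to SR proteins, 8 of 21 were above 0, with a median of -0.03. Srrm2, a scaffold of nuclear speckles, had 9532 and 7168 normalized counts in the knockdown samples, against 11522, 9869 and 10854 in empty vector 1, 2 and 3. Both knockdown samples were below all 3 controls, with a log2 difference of -0.38 ± 0.11 (SE; limma adjusted p = 0.54), and knockdown 2 was the lower of them. Scaf11, an SR-related factor, had a difference of -0.30 ± 0.10 (SE). On flow cell B the difference was -0.26 for Srrm2 and -0.21 for Scaf11, and with the length trend removed -0.23 for Srrm2 and -0.20 for Scaf11. The values turned on which knockdown sample was kept. Without knockdown 1 they were -0.58 for Srrm2 and -0.47 for Scaf11, and without knockdown 2 they were -0.17 for Srrm2 and -0.12 for Scaf11. Each such fit has a single knockdown library, assumed to vary like the empty vector samples. Knockdown 2 is also the library with the steepest trend on transcript length, and the part of that trend in these values was not tested.

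Of the hnRNP-type proteins outside the symbol rule, 14 of 20 tested were above 0, with a median of 0.03. Pcbp1, a cytosine-tract binder related to Hnrnpk, had 7790 and 7992 normalized counts in the knockdown samples, against 6760, 7300 and 6837 in empty vector 1, 2 and 3, without overlap. Its log2 difference was 0.18 ± 0.07 (SE; limma adjusted p = 0.56), and it was 0.11 on flow cell B. Pcbp3 of the same family differed by 0.38 ± 0.18 (SE), at a lower level of 183 and 175 normalized counts in the knockdown samples, against 147, 127 and 139 in empty vector 1, 2 and 3.

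Core spliceosome genes had 19 of 30 above 0 (beside 50.2% of tested genes) and a median of 0.04. On flow cell B the median was -0.04, with 7 of 30 above 0 (beside 47.3%). Prpf8, the large protein at the centre of the spliceosome, differed by -0.28 ± 0.09 (SE; limma adjusted p = 0.54), which was -0.23 on flow cell B and -0.15 with the length trend removed. It was -0.44 without knockdown 1 and -0.12 without knockdown 2, again with a single knockdown library in each fit. Snrpd2, a small Sm ring protein, differed by 0.33 ± 0.11 (SE), and by 0.09 on flow cell B. Among nonsense-mediated decay factors 8 of 15 were above 0, with a median of 0.0076, and on flow cell B 4 of 15 were above 0, with a median of -0.04. Upf2, an adaptor of the decay complex, differed by -0.27 ± 0.10 (SE) and Smg1, the kinase that phosphorylates Upf1, by -0.40 ± 0.14 (SE; limma adjusted p = 0.56 for both). On flow cell B the difference was -0.17 for Upf2 and -0.20 for Smg1, and with the length trend removed it was -0.18 for both. Without knockdown 1 Smg1 differed by -0.64, and without knockdown 2 by -0.15, each from a single knockdown library.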

How the data were processed

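RNA from 5 C2C12 samples was sequenced, at 15.2 to 20.1 M estimated reads per sample over the listed genes. The values deposited per gene are a signal, and judging by their steps they are reads divided by a size factor for each sample. Of the values up to 100 reads, 88.4% to 89.1% came out whole within 0.02 reads, so no count model was fitted. DESeq2 1.34.0, STAR, Partek and the build mm9 are named in the submitters' processing notes, and the sources used here give neither their roles nor the strand setting nor the library preparation. The build of the file's positions was not settled, so chromosome positions come only from GENCODE M21 and RefSeq (both GRCm38). The authors' deposited table gives a ratio and a p-value per gene, per the file headers, and these were copied.

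The scale was log2(value + 1), which understates differences of low genes. Testing covered 11990 genes (mean of 10 or more) with limma 3.58.1 in R 4.3.3, two-sided, with a trend and robust estimation and Benjamini-Hochberg adjustment at 0.05, knockdown minus empty vector. Of the tests planned, limma is the one that suits such values. No pair of samples agreed within counting noise, so none was merged. Transcript length was the median over basic coding transcripts of GENCODE M21, found for 99.2% of genes. Near-identical copies were found with blastn 2.17.0. Alternatives tried were the pseudocount (0.5), filters (none, 50), limma with neither the trend nor robust estimation, quantile normalization, the replicate block, a flow cell term, flow cell B alone, removal of the length trend, and leaving out each sample.

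The members and lists were chosen with earlier results of these data known. Members described in detail were 11 fixed ones, the 3 highest and 2 lowest per kb, the 5 with the smallest p, and those with the largest and smallest control spread in each family. From each list the 2 genes with the smallest p are named. Other members were named to account for all 31.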

Additional observations from a re-analysis of the deposited data

How the results depend on the processing

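No SR or hnRNP gene had an adjusted p under 0.05 under any alternative run. The limits are few samples and their layout. Only 1 empty vector sample shares a flow cell with the knockdown samples, and 2 samples against 3 leave wide intervals. Counting error is small for the coding members, and only the pseudogene is near the filter. Over all genes the number past the threshold, 0 as reported, was 0 to 107 with 1 sample left out, the highest without knockdown 1, and 28 without empty vector 2. The replicate numbers were not shown to pair the samples, since deviations of same-numbered samples correlated at 0.09 and 0.03. With the replicate block 311 genes passed, 0 of them members. With that block the medians of the lists were 0.037 (kinases and phosphatases), -0.085 (SR-related coactivators) and -0.078 (nonsense-mediated decay factors). Under the same block 3 coactivators, 1 decay factor and 1 core spliceosome gene passed. Srrm2 at -0.37, Scaf11 at -0.29, Smg1 at -0.34 and Prpf8 at -0.27 were among them (limma adjusted p = 7.1e-05, 0.0043, 0.00084 and 0.012). Empty vector 3 has no knockdown sample of its number, so the block differences are those found without it. They rest on 2 number-matched pairs, and knockdown 1 and empty vector 1 were on different flow cells.

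Since flow cell A held only controls, a flow cell term must give the same difference as flow cell B alone and is no separate check. The SR median was 0.057 in either of these settings. It was 0.036 with the length trend removed, and 0.054 to 0.11 with 1 sample left out. The hnRNP median was -0.010 with a flow cell term or on flow cell B alone, with 9 of 21 genes above 0, and the SR median minus the hnRNP median was -0.067 with the length trend removed. With 1 sample left out, members were counted whose remaining knockdown samples exceeded all remaining controls. They numbered 4 to 7 in the SR family and 6 to 16 in the hnRNP family. The share of all tested genes meeting this rule was also higher in each of these settings than with all samples. The 7 SR genes were found without knockdown 1, where only knockdown 2 is left, and the 16 hnRNP genes without empty vector 2. The shares of tested genes in these settings are given beside the counts in Results. Recounting members under each alternative, and the other transcript lengths, were chosen after seeing the data. The core spliceosome median was -0.044 with a flow cell term or on flow cell B alone. With 1 sample left out, list medians ran from -0.046 to 0.042 for kinases and phosphatases, -0.11 to 0.0095 for coactivators, 0.027 to 0.061 for hnRNP-type proteins outside the rule, -0.078 to 0.021 for decay factors, 0.0026 to 0.083 for the core spliceosome and -0.12 to -0.0098 for import and export. In those fits up to 2 coactivators, 1 decay factor and 1 core spliceosome gene passed, each without knockdown 1.

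Many single differences changed sign. On flow cell B alone 12 members turned from above 0 to 0 or below, at -0.020 for Srsf5, -0.025 for Hnrnpa0, -0.00045 for Hnrnpa1, -0.080 for Hnrnpab, -0.12 for Hnrnpd, -0.061 for Hnrnpdl, -0.066 for Hnrnph2, -0.029 for Hnrnpl, -0.010 for Hnrnpll, -0.035 for Hnrnpu, -0.062 for Hnrnpul1 and -0.18 for Hnrnpul2. Srsf10 turned to 0.013, Srsf11 to 0.056 and Tnpo3 to 0.017. A flow cell term gave the same values, as it must by the layout, for those of these genes it was computed for. With the length trend removed, Srsf2 was -0.011, Srsf6 -0.022, Srsf10 0.014, Hnrnpa3 -0.0097 and Hnrnpl -0.021. With 1 sample left out, 10 members changed sign at least once: Srsf2 ran from -0.0035 to 0.098, Srsf6 from -0.032 to 0.033, Srsf10 from -0.061 to 0.048, Srsf11 from -0.065 to 0.036, Hnrnpdl from -0.012 to 0.060, Hnrnph2 from -0.016 to 0.088, Hnrnpl from -0.033 to 0.023, Hnrnpu from -0.021 to 0.11, Hnrnpul1 from -0.018 to 0.040 and Hnrnpul2 from -0.065 to 0.19. Among the members described in detail, quantile normalization gave 0.014 for Srsf10, and the replicate block gave 0.0020 for Srsf10 and -0.021 for Hnrnpu. The cause of these changes was not tested.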
